A study of Mus musculus with 6 samples.

Results

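Genes that mark the circulating monocytes of the lung, 10 in all, were followed in whole lung RNA from mice with and without lincRNA-Cox2, a long noncoding RNA transcribed beside Ptgs2, the gene of inducible cyclooxygenase. They were chosen by symbol: Ly6c2, Ccr2 and F13a1 for classical (Ly6c-high) monocytes, Cx3cr1, Treml4, Spn, Ace, Fcgr4 and Itgal for patrolling (Ly6c-low) monocytes, and Csf1r for both. All 10 were found among the 20494 gene rows of the authors' deposited table, each in 1 row, and all 10 were among the 16902 rows with an adjusted p. RNA came from lungs of untreated male C57BL/6 mice aged 4 months, in 3 libraries labelled lincRNA-Cox2 KO and 3 labelled wild type. How the knockout allele was made is not given in the sources used here. The table holds the mean normalized count of each genotype (read counts scaled by each library's size factor) and the authors' DESeq2 comparison. It has no column for a single library, so the error given with a difference is the authors' standard error of the shrunken log2 fold change.

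Monocytes leave the bone marrow as classical cells, which enter tissue along gradients of Ccr2 ligands and can become macrophages or dendritic cells. Part of them convert to patrolling cells, which crawl along the vessel wall, use Cx3cr1 and the integrin LFA-1, and depend on the nuclear receptor Nr4a1. The lung holds many of both in its capillaries, and several of the marker genes are also used by macrophages, lymphocytes or endothelium.

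In the authors' deposited table the targeted RNA, Lincrna-cox2, averaged 311 normalized counts in wild type and 0.666 in knockout (adjusted p = 4.05e-91 by DESeq2), which checks the labels. The means summed to 3.71e+07 in wild type and 3.68e+07 in knockout, and the size factors of the 6 libraries, derived from low means, lay between 0.961 and 1.03. The lung marker Sftpc, the surfactant protein of alveolar type 2 cells, averaged 82187 and 83359, per the authors' deposited table. In whole tissue, fewer cells of a type and less RNA per cell cannot be told apart.

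None of the 10 chosen monocyte genes passed the test in the knockout. Of them, 0 had an adjusted p under 0.05 in the authors' DESeq2 comparison, where 1.09% of all tested rows did. The smallest adjusted p was 0.235, for Ccr2. At an unadjusted p under 0.05 there were 3 (8.47% of all tested rows): Ccr2 and Ly6c2 with the higher mean in knockout (4.43% of rows), and Ace with the lower (4.04% of rows). The median log2 ratio of the group means was 0.08 over the 10 genes and -0.0013 over all tested rows, with 6 means higher and 4 lower in knockout. The 3 classical genes had a median of 0.30 and the 6 patrolling genes one of 0.03. No test of the difference between these 2 groups of genes was made.

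**Figure D1:**
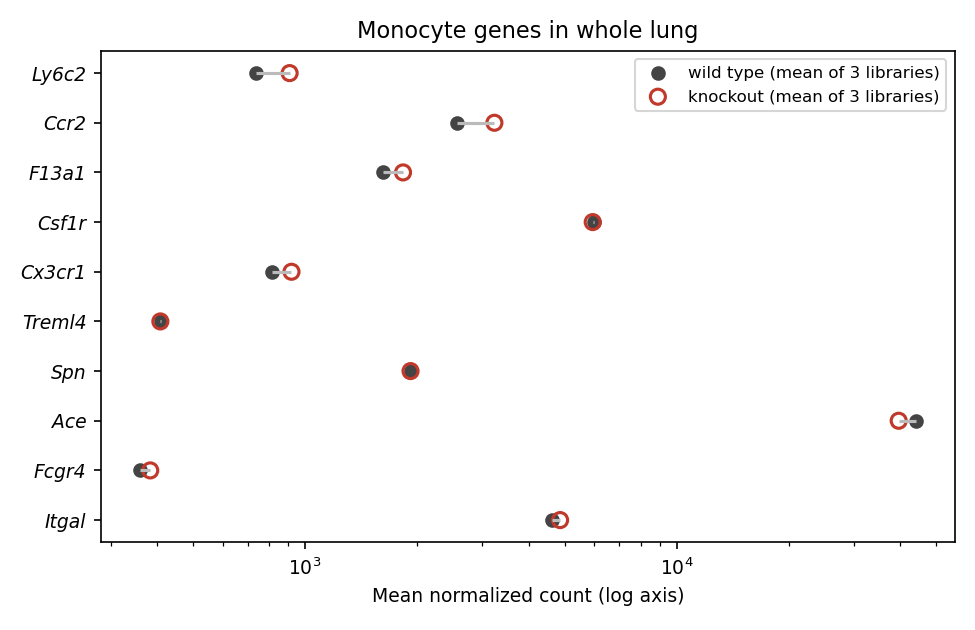
Mean normalized count (log axis) of each monocyte gene in wild type (filled) and knockout (open), each a mean of 3 libraries as the authors deposited it. The open circle lies to the right of the filled one for Ly6c2 (738 and 908), Ccr2 (2565 and 3232) and F13a1 (1620 and 1835), and the pair coincides for Csf1r, Treml4 and Spn.

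Ccr2, the receptor for Ccl2 and Ccl7 that lets classical monocytes leave the marrow and enter tissue, is listed in the authors' deposited table at a mean of 2565 normalized counts in wild type and 3232 in knockout. The knockout mean was 1.26-fold higher (shrunken log2 fold change 0.22 ± 0.081, SE; unadjusted p = 0.0069, adjusted p = 0.235 by DESeq2). Shrinkage pulls each fold change towards 0 by an amount that grows with its error: over these 10 genes the shrunken value was a median 0.665 of the log2 ratio of the means. An interval of 1.96 standard errors around the shrunken value of Ccr2 spans folds of 1.04 to 1.30. The gene lies at chr9:124101950-124113557 on the plus strand (mm10).

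Ly6c2 encodes the GPI-anchored surface protein that defines the Ly6c-high gate together with its twin Ly6c1. The authors' deposited table gives it means of 738 in wild type and 908 in knockout, a 1.23-fold ratio (shrunken log2 fold change 0.20 ± 0.079, unadjusted p = 0.0108, adjusted p = 0.300 by DESeq2). Ly6c1, which lung endothelium expresses strongly, averaged 6645 and 7335 there (adjusted p = 0.793). The mean count of Ly6c1, not divided by transcript length, was thus 9.01 times that of Ly6c2 in wild type and 8.07 times in knockout. The pair summed to 7383 and 8243, a ratio of 1.12. The 2 genes lie on the minus strand of chromosome 15 in mm10, Ly6c2 at chr15:75108158-75111970 and Ly6c1 at chr15:75044018-75048830.

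The coding sequences of this pair are shown because they bear on how well a 50-base read can be given to Ly6c2. Both run over 3 coding exons and hold 393 bases without the stop codon, of which 9 differ (97.7% identity), and the longest run of identical bases is 188. The first 300 coding bases, with 7 of the differences, are printed 5′ to 3′ from the GENCODE M21 transcripts, and capitals mark the differing bases.
Ly6c2: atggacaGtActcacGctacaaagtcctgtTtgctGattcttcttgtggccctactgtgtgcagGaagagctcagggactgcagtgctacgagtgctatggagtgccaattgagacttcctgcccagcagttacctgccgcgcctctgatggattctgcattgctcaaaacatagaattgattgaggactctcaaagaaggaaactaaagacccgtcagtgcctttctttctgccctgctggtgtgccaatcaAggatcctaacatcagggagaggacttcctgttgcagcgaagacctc
Ly6c1: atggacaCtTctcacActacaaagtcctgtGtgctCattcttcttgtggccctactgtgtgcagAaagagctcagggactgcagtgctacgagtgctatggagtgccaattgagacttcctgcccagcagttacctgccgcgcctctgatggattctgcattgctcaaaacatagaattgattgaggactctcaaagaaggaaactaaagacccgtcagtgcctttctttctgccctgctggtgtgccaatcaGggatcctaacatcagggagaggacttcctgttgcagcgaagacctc
Of the 773 windows of 50 bases in the longest coding transcript of Ly6c2, 255 (33.0%) also occurred in another gene, 252 of them in Ly6c1. How the authors counted reads that match both genes is not given in the sources used here; the split between Ly6c2 and Ly6c1 is uncertain. Of the other members, Csf1r shared 824 of 4652 windows with Hmgxb3 (means of 2111 and 1963 per the authors' deposited table), Ace 201 of 4857 with Gm11651, Ccr2 129 of 5679 with other genes, and Cx3cr1 47 of 4444. F13a1, Treml4, Spn, Fcgr4 and Itgal, 5 of the 10 genes, shared none.

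F13a1, the A subunit of coagulation factor XIII and a transcript that classical monocytes and some tissue macrophages hold in large amounts, averaged 1620 in wild type and 1835 in knockout, per the authors' deposited table. This 1.13-fold ratio did not pass the test (shrunken log2 fold change 0.12 ± 0.080, adjusted p = 0.821 by DESeq2), and its interval spans folds of 0.973 to 1.21. The gene lies at chr13:36867178-37050244 on the minus strand. All 3 classical genes had the higher mean in knockout, and none of their adjusted p-values was under 0.05. Summed, the 3 stood at 4923 normalized counts in wild type and 5975 in knockout.

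Csf1r, the receptor for Csf1 and Il34 on which monocytes and macrophages depend, had nearly equal means in the authors' deposited table, 5985 and 5944. Its shrunken log2 fold change was -0.01 ± 0.066 (adjusted p = 0.998 by DESeq2), with an interval from 0.909-fold to 1.09-fold. Macrophages share this transcript, which lies at chr18:61100598-61132149 on the plus strand.

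Among the patrolling genes, Treml4 and Spn had means within 2% of each other in the 2 genotypes. Treml4, a receptor of the TREM family that binds dying cells, stood at 410 and 408 per the authors' deposited table (a shrunken log2 change of -0.0036 ± 0.084, adjusted p = 0.999 by DESeq2; chr17:48264295-48275360, plus strand). Spn, the sialomucin CD43 whose high level marks patrolling monocytes and which T cells also carry, stood at 1933 and 1922 there (-0.01 ± 0.078, adjusted p = 0.999; chr7:127132232-127137823, minus strand). Their intervals reach from 0.890-fold to 1.12-fold for Treml4 and from 0.896-fold to 1.11-fold for Spn.

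Cx3cr1, the fractalkine receptor that patrolling monocytes need for survival, averaged 815 and 919 per the authors' deposited table, a ratio of 1.13 that did not pass the test (0.10 ± 0.083, adjusted p = 0.890 by DESeq2; chr9:119901616-120069879, minus strand). Ccr2 over Cx3cr1, as mean counts not divided by transcript length, gave a ratio of 3.15 in wild type and 3.52 in knockout. Such ratios can be compared between genotypes but do not give relative levels of the 2 genes. Ly6c2 over Treml4 gave 1.80 and 2.23 in the same way, and rests on the uncertain split between Ly6c2 and Ly6c1. No library values lie behind these ratios, and they were not tested.

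Fcgr4, an activating Fc receptor of patrolling monocytes, had the lowest mean counts of the members when not divided by transcript length. The authors' deposited table lists it at 359 and 383 (0.05 ± 0.084, adjusted p = 0.991 by DESeq2). It is the 1 member on chromosome 1 (chr1:171018920-171029761, plus strand), 20.9 Mb from Ptgs2, the neighbour of the targeted gene. Itgal, the alpha chain of LFA-1 that lymphocytes also carry, averaged 4619 and 4856 there (0.06 ± 0.064, adjusted p = 0.953; chr7:127296260-127335138, plus strand).

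Ace, angiotensin-converting enzyme, is present on patrolling monocytes and is a main product of lung capillary endothelium. Its means, 44059 in wild type and 39595 in knockout per the authors' deposited table, were the highest of the 10 genes (chr11:105967945-105989964, plus strand). The knockout mean was 1.11-fold lower (shrunken log2 fold change -0.13 ± 0.060, unadjusted p = 0.0303, adjusted p = 0.493 by DESeq2), with an interval from 0.841-fold to 0.991-fold. The 10 endothelial markers measured beside it summed to 189288 in wild type and 180057 in knockout, with a median log2 ratio of -0.07. A lower mean in knockout was found for 9 of them, as for 8550 of the 16902 tested rows. Of the 10 markers, 0 were called (1.09% of all tested rows) and 1 had an unadjusted p under 0.05 (8.47% of rows). None of them was at 0, and their part in the value of Ace was not tested. With Ace, the 6 patrolling genes summed to 52194 and 48082, and without it the other 5 summed to 8136 and 8487.

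**Figure D2:**
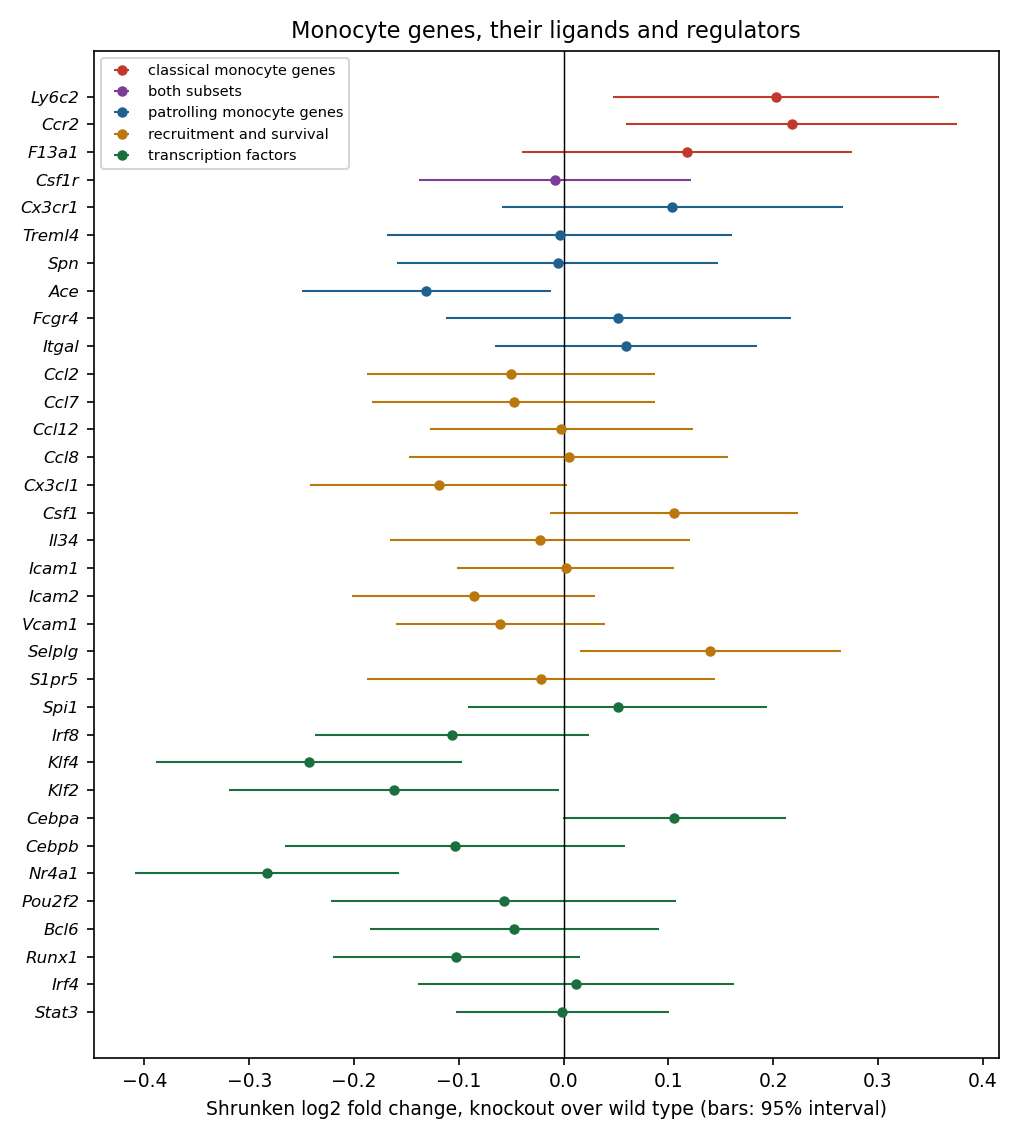
The authors' shrunken log2 fold change, knockout over wild type, of the 10 monocyte genes, 12 genes of recruitment and survival and 12 transcription factors, with bars of 1.96 standard errors. The intervals of Ccr2 and Ly6c2 lie above 0 and that of Ace below, although none of the 3 passed the test over all genes. Nr4a1, at -0.28, is the lowest point and the called gene of those shown.

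No gene of the signals that recruit monocytes and keep them alive passed the test. Of 12 genes in this list 0 were called by the authors' DESeq2 comparison (1.09% of all tested rows). At an unadjusted p under 0.05 there was 1 (8.47% of all tested rows), and the median log2 ratio of the 12 was -0.04. Ccl2, the main Ccr2 ligand, was low in both genotypes, at 51.5 and 44.0 normalized counts per the authors' deposited table (adjusted p = 0.986 by DESeq2). Cx3cl1, the membrane-bound ligand of Cx3cr1, averaged 4244 and 3846 there, with an unadjusted p of 0.0558 and an adjusted p of 0.613. Per the authors' deposited table, Csf1 stood at 2612 and 2846 and Il34 at 736 and 721 (adjusted p = 0.699 and 0.997). Icam1, the endothelial partner of LFA-1, stood at 17569 and 17596 there (adjusted p = 0.999). Selplg, which carries the selectin ligand of leukocytes, was the gene with the unadjusted p under 0.05, at 2832 and 3183 (p = 0.0276, adjusted p = 0.475, the authors' deposited table).

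For Ccl12, another Ccr2 ligand, the group means are low enough to give the reads of each library. The wild type libraries held 31, 25 and 40 reads and the knockout libraries 36, 37 and 24. Divided by the size factors, this is 32.3 ± 8.53 (SD, n = 3) in wild type and 32.0 ± 6.45 (SD, n = 3) in knockout (2-sided exact permutation test, p = 0.9; 3 against 3 libraries cannot go below 0.1). The groups overlap, and the lowest and the highest library differ more within a genotype than the means do between them.

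Transcription factors of the lineage had a median log2 ratio of -0.11, with 9 of 12 means lower in knockout and 1 called (1.09% of all tested rows), Nr4a1. Nr4a1, on which patrolling monocytes depend and which is also an immediate-early gene of many cell types, averaged 14598 in wild type and 4408 in knockout, per the authors' deposited table. By the means it fell 3.31-fold, a log2 ratio of -1.73 (adjusted p = 0.00256 by DESeq2). The shrunken log2 fold change was much smaller, -0.28 ± 0.064, and its interval spans folds of 0.753 to 0.897. No library values show the spread behind the ratio of the means. The 6 patrolling members had the values given above, 3 means higher and 3 lower in knockout. Klf4, a factor that monocytes need to form, averaged 9012 and 7174 there (-0.24 ± 0.075, unadjusted p = 0.00114, adjusted p = 0.0766). Klf2 followed with 7837 and 6614 (unadjusted p = 0.0434, adjusted p = 0.560, the authors' deposited table). Klf4, Klf2 and Nr4a1 are all expressed by endothelium as well.

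Further genes of classical monocytes, from a list of 20, had a median log2 ratio of 0.13, with 17 means higher and 3 lower in knockout. Of the 20, 1 was called (1.09% of all tested rows), and 6 had an unadjusted p under 0.05 (8.47% of all tested rows), of which 5 had the higher mean in knockout (4.43% of rows). Gda, guanine deaminase, rose from 1834 to 2243 per the authors' deposited table (1.22-fold, shrunken log2 change 0.24 ± 0.064, adjusted p = 0.0209 by DESeq2). Cd177, a surface protein mainly of neutrophils, had means of 333 and 720 there, with an adjusted p of 0.0852. Clec4e, the lectin Mincle, had means of 184 and 257 (adjusted p = 0.102, the authors' deposited table). Without 8 genes of the list that neutrophils also express, a split that was not planned, the median of the other 12 was again 0.13. Of these 12, 10 means were higher, 1 was called (1.09% of all tested rows) and 2 had an unadjusted p under 0.05 (8.47%). The highest log2 ratio was 0.30, against 1.11 in the list of 20. Whether neutrophils contribute to the values of these 12 was not tested.

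Further genes of patrolling monocytes, also 20, had a median log2 ratio of 0.05, with 14 means higher and 6 lower. Of these, 1 was called (1.09% of all tested rows), Hes1, a Notch target that many lung cells express, which fell from 4073 to 2933 per the authors' deposited table (1.39-fold, shrunken log2 change -0.37 ± 0.071, adjusted p = 0.000104 by DESeq2). Cd300ld, an immunoglobulin-like receptor of myeloid cells, had means of 632 and 811 there (adjusted p = 0.156), and Clec4a3 had 613 and 711 (adjusted p = 0.623).

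Among 17 measured relatives and partners of the member receptors, 14 means were higher in knockout, the median log2 ratio was 0.10, and 1 gene was called (1.09% of all tested rows), Csf3r. This receptor for granulocyte colony-stimulating factor, mainly a neutrophil gene, rose from 1726 to 2766 per the authors' deposited table (1.60-fold, adjusted p = 1.05e-11 by DESeq2). Ccr1, another chemokine receptor of monocytes and neutrophils, had means of 555 and 699 there (adjusted p = 0.0978). Fcer1g, the signalling chain that Fcgr4 needs, had 1070 and 1330 (unadjusted p = 0.0135, adjusted p = 0.338, the authors' deposited table). Fcgr3, the Fc receptor next to Fcgr4 in the genome, had 1428 and 1593 (unadjusted p = 0.0229, adjusted p = 0.438), in the same authors' deposited table.

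**Figure D3:**
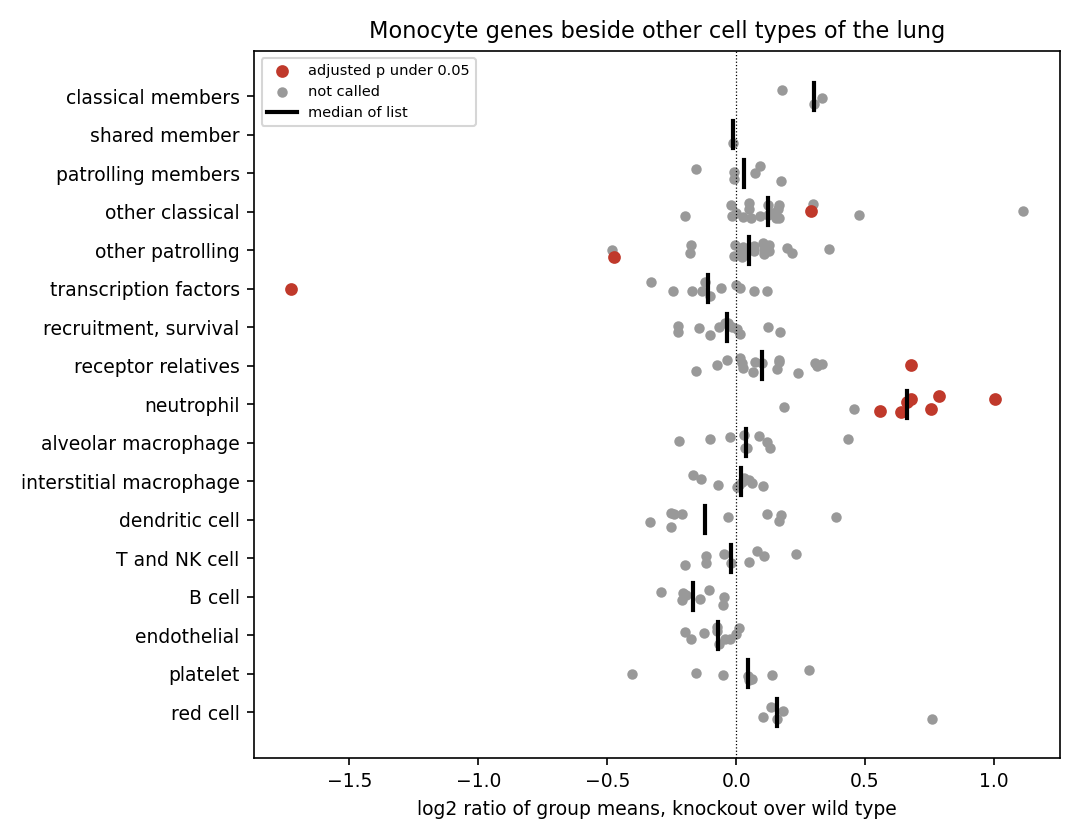
The log2 ratio of the group means, knockout over wild type, for each tested gene of the monocyte lists and of markers of other lung cell types, with the median of each list as a bar and called genes in red. The neutrophil list stands at a median of 0.66 with 7 of 9 genes called (1.09% of all tested rows), and the classical members at 0.30 with 0 called. Nr4a1 lies far left at -1.73, while its shrunken log2 fold change is -0.28.

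Markers of neutrophils, blood leukocytes that share part of the classical programme, were higher in knockout beside the classical genes. All 9 measured neutrophil markers had the higher mean, as did 8352 of the 16902 tested rows. Of the 9, 7 were called (1.09% of all tested rows). The median log2 ratio of the markers was 0.66, and they summed to 7960 in wild type and 12578 in knockout. None was at 0 in either genotype. Their part in the values of Ccr2, Ly6c2 and F13a1 was not tested. Markers of red cells, a sign of blood held in the lung, summed to 81691 and 89529, with 5 of 5 means higher and none at 0. Of these 5 markers, 0 were called and 1 had an unadjusted p under 0.05 (8.47% of all tested rows). Those of platelets, also found in blood, summed to 4184 and 4354, with 5 means higher, 3 lower, 0 called and none at 0. The part of red cells and platelets was likewise not tested. Markers of interstitial macrophages, which share Csf1r and Cx3cr1, had a median of 0.02 and 0 of 10 called. Those of alveolar macrophages had a median of 0.04 and 0 of 10 called. At an unadjusted p under 0.05 there were 2 of them (8.47% of all tested rows), 1 higher (4.43% of rows) and 1 lower (4.04% of rows). T and NK cell markers, whose cells carry Itgal and Spn, had a median of -0.02 and 0 of 9 called. B cell markers, whose cells also carry Itgal, had the lower mean in knockout for 8 of 8 genes, with a median of -0.17, 0 called and 4 at an unadjusted p under 0.05 (8.47% of all tested rows). They summed to 9157 in wild type and 8304 in knockout, and none was at 0. Dendritic cell markers had a median of -0.12 over 10 genes, 6 of them with the lower mean and 0 called. Of these 10, 4 had an unadjusted p under 0.05 (8.47% of all tested rows), 3 lower (4.04% of rows) and 1 higher (4.43% of rows). The 10 markers summed to 6775 and 6302, and none was at 0. The part of B cells and dendritic cells in the values of the member genes was not tested.

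Levels between genes were compared per kilobase of the longest annotated transcript. Ace was the most abundant member, at 8981 normalized counts per kb in wild type and 8071 in knockout. Csf1r followed at 1273 and 1264, then Itgal at 884 and 930 and Spn at 516 and 513. Ccr2 stood at 448 and 564, F13a1 at 410 and 464, Fcgr4 at 286 and 305, Treml4 at 235 and 234, and Cx3cr1, the lowest per kb, at 181 and 205. Ly6c2 depended on the transcript: 275 and 339 per kb with the longest one, which retains an intron, and 897 and 1105 with the longest coding one, which placed it after Ace and Csf1r. F13a1 stood below Fcgr4 and Ly6c2 in wild type when the union of exons was used, at 240 per kb against 286 and 269. Since the table has no library values for these genes, which neighbours in this order differ beyond their spread could not be tested.

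**Figure D4:**
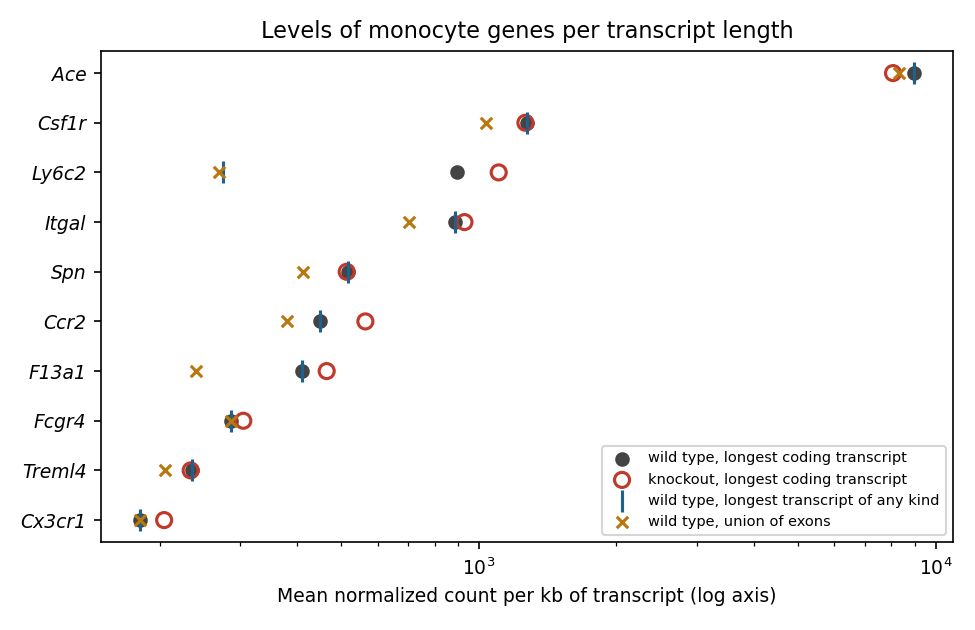
Mean normalized count per kb of transcript (log axis) of the 10 genes in wild type (filled) and knockout (open) over the longest coding transcript, with the wild type level over the longest transcript of any kind (bar) and over the union of exons (cross). Ace stands alone near 8981, and the marks of Ly6c2 spread from 269 to 897 with the length used.

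The standard error of the shrunken log2 fold change lay between 0.060 and 0.084 over the 10 genes. It belongs to the shrunken value and does not give the precision of the ratio of the means. Among the 11516 tested rows with means in the range of the 10 genes, 140 were called (1.22%). Their folds had a median of 1.33, a lower quartile of 1.25 and a lowest value of 1.13. The ratio of Ccr2, 1.26, lay above this quartile and that of Ly6c2, 1.23, below it. Folds of called rows were selected by the test, so they do not give the smallest difference detectable for a member. The widest interval bounds around the shrunken values of the 10 genes were 0.841-fold (Ace) and 1.30-fold (Ccr2). These bounds do not limit the ratio of the means.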

How the data were processed

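Total RNA of whole lung was sequenced as 50 bp paired ends from 500 ng per library, per the labels' protocols. Genome build mm10, DESeq2, STAR 2.5.1b, Bowtie2, bedtools and SAMtools appear in the submitters' processing notes, without their roles. Neither the counting rule nor any use of strand is given in the sources used here; the named kit does not mark strand. Per the file headers, the authors deposited group means, a signal in normalized counts. They also deposited a shrunken log2 fold change with its standard error, the Wald statistic (a score), and their comparison's p-value, raw and adjusted. Benjamini-Hochberg adjustment over the 16902 rows with an adjusted p gave the deposited values to within 6.3e-08.

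No count model was fitted, as no library counts are in the table, and the design's branch for the authors' comparison applied. A gene is called at an adjusted p under 0.05. Ratios, medians, sums, intervals (1.96 standard errors) and levels per kb were computed with pandas 2.3.3 in Python 3.11.15. Lists held 184 entries, of which 178 were found, 2 genes by an older symbol through RefSeq synonyms. Positions, lengths and sequences are from GENCODE M21 (mm10). Windows of 50 bases were searched on both strands in all its transcripts. Whole reads of single libraries were derived only for genes with a mean under 40. This step was tested on simulated data whose size factors lay further apart than those derived here. For Ccl12, 1 set of reads gave the mean of each genotype. Libraries are separate samples per the labels, which do not state 1 mouse per library. The p-values test the difference between genotypes with these samples as the units, which need not be separate mice. The members and lists were chosen with earlier results of these data known.

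The rule for named genes takes the 10 members, the targeted gene, each called gene and the 2 with the smallest p of each monocyte list, 6 fixed ligands and regulators, and 3 close relatives of members, 1 of which is not reported here. Sftpc, Ccl12, and Hmgxb3 and Gm11651, which share sequence with members, were named in addition, after their values were seen. The alternatives were other thresholds, scalings, filters, pseudocounts, transcript lengths and left-out libraries.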

Additional observations from a re-analysis of the deposited data

How the results depend on the processing

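The count of 0 called members was the same at an adjusted p under 0.1 and with Benjamini-Hochberg adjustment over every row with a p-value. At an unadjusted p under 0.05 it was 3 (8.47% of all tested rows). Called genes of the further monocyte lists numbered 4 of 81 (1.09% of all tested rows), and 16 at an unadjusted p under 0.05 (8.47% of all tested rows). Without genes of the neutrophil list, an alternative chosen after seeing the data, they numbered 3. The median log2 ratio of the members lay between 0.06 and 0.09 under all settings tried, and that of the patrolling members between 0.02 and 0.04, Ace and Itgal left out included. The filter on a mean of at least 50 could not change either median, since the lowest mean of a member was 371. With the union of exons in place of the longest transcript, wild type levels per kb were 379 for Ccr2, 240 for F13a1, 1037 for Csf1r, 205 for Treml4, 413 for Spn, 8333 for Ace and 703 for Itgal, and F13a1 moved from above to below Fcgr4 (286) and Ly6c2 (269). With the longest coding transcript, chosen after seeing the data, Ly6c2 stood at 897. Leaving out each library in turn could be done for Ccl12 only, where the log2 ratio of -0.02 ranged from -0.17 to 0.21, turning positive without wild type library C or knockout library C. For the members leaving out a library was not run, since their means do not give library values. No paired analysis was possible because the table has no library columns and the library numbers in the titles are not shared between the genotypes. Depth limits the low ligands most: Ccl12 rests on 24 to 40 reads per library.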
